A study of Mus musculus with 4 samples.

Results

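The genes described here are the chemokines, the interleukins, the colony-stimulating factors and the receptors of these proteins. Members were the probe sets whose platform gene symbol began with Ccl, Cxcl, Ccr, Cxcr, Ackr or Il and a digit, with Csf and a digit from 1 to 3, or with Cx3cl1, which gave 215 of 45037 probe sets. Of these, 212 named 132 genes on their own, of 18193 genes named on the array, and 3 carried several symbols, so that they were counted but not named. The arrays held 2 samples of Myc-depleted bronchoalveolar stem cells (BASCs) and 2 samples of control BASCs, all from lungs of ICR mice 4 to 6 weeks old. BASCs had been sorted for CD34 and Sca-1 and against CD31 and CD45, and plated first on irradiated mouse embryonic fibroblasts. The study's text gives both collagen-coated dishes and such fibroblasts as the support for later passages, so whether feeder cells contributed RNA to the arrays is not known. The study's BASC medium contained fetal bovine serum and leukemia inhibitory factor (LIF). The Myc-depleted cells were stable lines made with lentivirus carrying a short hairpin RNA against c-Myc and selected with puromycin for several generations. The study used 2 different hairpins, and which of them the cells on the arrays carried is not stated in the sources used here. The study calls the control cells of the arrays wild type. Whether they had received a control virus or puromycin is not stated in the sources used here, so infection and selection cannot be told apart from depletion. Nor is it stated whether replicate arrays came from separate cultures, so the p-values may rest on technical spread alone.

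Chemokines are small secreted proteins that bind heparan sulfate and direct the movement of cells through receptors coupled to G proteins. Atypical chemokine receptors bind the same ligands but do not signal through G proteins, and remove or redistribute them. Interleukins act through paired receptor chains, some private to a ligand and some shared. In the lung, epithelial and mesenchymal cells are known to be sources of neutrophil and monocyte chemokines, of alarmins such as Il33 and of cytokines that use the shared chain gp130, the product of Il6st.

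Each value below is the log2 signal of 1 probe set, and every difference is Myc-depleted minus control. Myc read 8.35 and 8.50 on the Myc-depleted arrays against 9.21 and 9.69 on the control arrays, a difference of -1.02 (adjusted p = 0.363 in limma). Of the 5 BASC markers with a probe set, 4 lay under the low-value threshold of 5.08, namely Scgb1a1, Sftpc, Cd34 and Cdh1, and the mean over the list was 4.98 to 4.99 on Myc-depleted and 4.75 to 4.84 on control arrays. Epcam lay above the threshold, with 7.80 and 7.52 on Myc-depleted and 6.89 and 7.12 on control arrays. Ly6a (Sca-1), also listed, had no probe set under that symbol and was not read. Most of the markers that were read thus lay at background, and the cells are called BASCs only as the labels do. All 8 fibroblast and mesenchymal markers had a mean above the threshold, with list means of 11.1 to 11.3 on Myc-depleted and 11.1 to 11.2 on control arrays. Within that list Pdgfra read 11.70 and 11.36 on Myc-depleted and 10.31 and 10.29 on control arrays, and Thy1 4.68 and 4.75 on Myc-depleted and 6.02 and 5.92 on control arrays, and the part of such cells in the results was not tested. Leukocyte markers had list means of 5.32 to 5.44 on Myc-depleted and 5.22 to 5.25 on control arrays, with 4 of 8 under the threshold, Ptprc (CD45) among them. For endothelial markers 5 of 6 were under it, with list means of 4.47 to 4.49 on Myc-depleted and 4.40 to 4.43 on control arrays. The arrays also differed in a way the labels do not name. The poly-A spike-ins, bacterial RNAs added before labelling, read 3.17 and 1.51 log2 units higher with 3′ than with 5′ probe sets on Myc-depleted 1 and 2, against 1.60 and 2.69 on control 1 and 2. Differences are therefore also given within the pair of arrays with high values (Myc-depleted 1 minus control 2) and within the pair with low values (Myc-depleted 2 minus control 1).

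A smaller share of the member probe sets than of the whole array had signal enough to be tested, and a few of these differed by more than 2-fold between the groups. A mean over the 4 arrays at or above the threshold was reached by 104 probe sets, 48.4% of the members against 27022 of all 45037 probe sets. They named 69 genes on their own. Members dim in one group could pass through the other. The 111 probe sets under it had differences between -0.56 and 0.59, and for 63 genes no probe set was tested. In limma 0 of 104 were called at an adjusted p under 0.05, as were 0 of 27022 over the whole array (0%). An unadjusted p under 0.05 was reached by 13, or 12.5%, against 10.1% of all probe sets tested, 10 of them higher (background 5.63%) and 3 lower (background 4.46%) in Myc-depleted cells. Of these 13, 9 exceeded 1.5-fold (8.65%, background 4.5%) and 5 exceeded 2-fold (4.81%, background 1.17%), 4 of them higher (background 0.651%) and 1 lower (background 0.518%). These 5 were Ackr3, Il1rl2, Ccl8 and Il33, higher, and Il11, lower. Il33 passed the filter only through the Myc-depleted arrays, so no excess is read from this count, and with values floored at the threshold it was 4. That count was 3 without control replicate 2 and 9 without Myc-depleted replicate 2. The count of 13 was 7 without control replicate 1, 6 without control replicate 2 and 21 without Myc-depleted replicate 2. The groups did not overlap for 41 of 104 probe sets, 39.4%, which is near the background of 41.1%, with 30 higher (background 22.5%) and 11 lower (background 18.5%). The median difference over the tested members was 0.10 (quartiles -0.07 and 0.26), beside 0.00 (quartiles -0.17 and 0.15) over all probe sets tested.

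**Figure D1:**
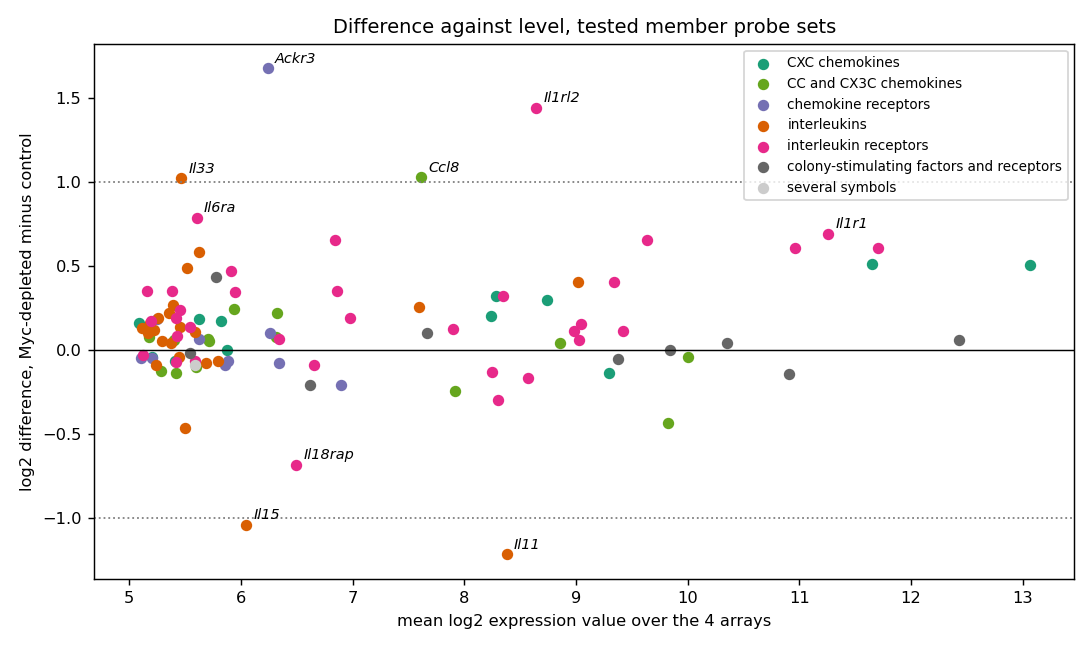
Log2 difference (Myc-depleted minus control, vertical axis) against the mean log2 expression value over the 4 arrays (horizontal axis) for the 104 tested member probe sets, coloured by role, with dotted lines at a 2-fold difference. Ackr3, Il1rl2, Ccl8 and Il33 lie above the upper line, Il11 and Il15 below the lower one, and 71 probe sets lie within 0.25 of 0.

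The atypical chemokine receptor Ackr3, also known as Cxcr7, which binds Cxcl12 and Cxcl11, had the largest difference of the tested members. It read 7.19 and 6.96 on the Myc-depleted arrays, against 5.47 and 5.34 on the control arrays. Both Myc-depleted arrays thus lay more than 1 log2 unit above both controls. The difference was 1.67 (SE 0.14), or 3.19-fold, with an unadjusted p of 0.000306 and an adjusted p of 0.259 in limma. It was 1.49 within the pair with low and 1.86 within the pair with high spike-in values. When each gene was represented by the mean of its tested probe sets, which for Ackr3 is this probe set alone, Ackr3 was the 1 of 69 member genes called (adjusted p = 0.0461 in limma, background 0.175%). In the RefSeq annotation (GRCm38.p6) the 250 bases before the start of Ackr3 are chr1:90203730-90203979 on the plus strand. They are shown because Ackr3 differed most, and the capitals mark the 1 copy found of the letters TATAAA, at -8 to -3 from the start.
Ackr3: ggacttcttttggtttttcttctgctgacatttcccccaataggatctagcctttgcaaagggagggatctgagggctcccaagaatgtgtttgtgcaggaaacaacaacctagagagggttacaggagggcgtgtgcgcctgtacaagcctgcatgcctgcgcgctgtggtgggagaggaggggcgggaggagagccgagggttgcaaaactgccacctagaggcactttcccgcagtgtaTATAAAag
In bulk samples such as these, more RNA of a gene per cell and more cells that express it cannot be told apart.

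Cxcl12, the chemokine that Ackr3 shares with the signalling receptor Cxcr4, was also higher in Myc-depleted cells by 2 of its probe sets. The first read 13.29 and 13.35 on the Myc-depleted arrays, against 12.91 and 12.71 on the control arrays, a difference of 0.51 (SE 0.13, unadjusted p = 0.0183, adjusted p = 0.402 in limma). The second read 11.96 and 11.85 on the Myc-depleted arrays and 11.55 and 11.24 on the control arrays, a difference of 0.51 (SE 0.16, adjusted p = 0.454 in limma). The groups did not overlap in either. The third probe set differed by 0.18, between 5.67 and 5.77 on Myc-depleted and 5.44 and 5.64 on control arrays. Cxcr4 lay under the threshold on all arrays, with 4.03 and 3.98 in Myc-depleted and 3.91 and 3.72 in control cells. Cxcl11, the other ligand of Ackr3, lay near it, and its difference was 0.16.

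The other chemokine receptors gave little signal. Of 32 probe sets for 19 genes, 10 probe sets for 9 genes were tested. Of these genes only Ackr3 had an unadjusted p under 0.05, a share near the 10.1% of all tested probe sets. The other 8 differed by -0.21 to 0.18. Ackr4, which scavenges Ccl19, Ccl21 and Ccl25, read 7.13 and 6.46 on the Myc-depleted arrays and 6.80 and 7.21 on the control arrays, so its groups overlapped. Ccr2, the receptor of Ccl2 and Ccl7 on monocytes, read 6.35 and 6.26 on the Myc-depleted arrays and 6.23 and 6.19 on the control arrays with 1 probe set, and lay under the threshold with 3 others. Ccr9, a receptor of lymphocytes for Ccl25, differed by -0.07 with its tested probe set.

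Among the CC chemokines, Ccl8 was higher in Myc-depleted cells, whereas Ccl2 and Ccl7, encoded on the same chromosome, had differences of -0.43 and 0.04. These differences were not tested against each other. Ccl8, which in the mouse acts through Ccr8, read 8.31 and 7.94 on the Myc-depleted arrays, against 7.37 and 6.83 on the control arrays. The groups did not overlap, and the control arrays differed from each other about as much as from the nearer Myc-depleted array. The difference was 1.03 (SE 0.26), or 2.04-fold, with an unadjusted p of 0.0159 and an adjusted p of 0.393 in limma, and it was 0.57 within the low and 1.49 within the high spike-in pair. In the ANOVA that the study's methods name, the unadjusted p for Ccl8 was 0.0893. Ccr8 itself lay between 3.65 and 3.78 on all arrays. The 250 bases before the start of Ccl8, chr11:82114935-82115184 on the plus strand (RefSeq, GRCm38.p6), hold TATAAA at -32 to -27, in capitals, and are shown because Ccl8 had the largest difference of the tested chemokines.
Ccl8: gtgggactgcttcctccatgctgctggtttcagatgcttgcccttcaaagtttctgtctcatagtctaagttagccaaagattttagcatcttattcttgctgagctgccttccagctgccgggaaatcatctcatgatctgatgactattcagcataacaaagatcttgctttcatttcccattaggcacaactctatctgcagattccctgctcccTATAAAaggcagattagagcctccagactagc

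Among the members on chromosome 11, the RefSeq order is Ccl2, Ccl7, Ccl11, Ccl12 and Ccl8. Ccl2, the main monocyte attractant, read 9.61 and 9.61 on the Myc-depleted arrays and 10.28 and 9.80 on the control arrays. Its groups did not overlap, and the difference of -0.43 (SE 0.20) had an adjusted p of 0.576 in limma. It was -0.19 without control replicate 1 and -0.67 without control replicate 2. Ccl7, also a monocyte attractant, read 8.79 and 8.96 on the Myc-depleted arrays and 9.06 and 8.62 on the control arrays, and its groups overlapped. Ccl11 and Ccl12 lay under the threshold. Ccl9, a mouse chemokine that binds Ccr1, differed by -0.04 and -0.25 with 2 probe sets whose groups overlapped. Over the 11 tested genes of CC and CX3C chemokines the median difference was 0.05, with 7 higher and 4 lower. Ccl8 alone had an unadjusted p under 0.05, a share near the 10.1% of all tested probe sets.

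The neutrophil attractants Cxcl1 and Cxcl5 are ligands of Cxcr2. Cxcl1 varied more between the Myc-depleted arrays than between groups, and Cxcl5 more between the control arrays than between groups. The brightest probe set of Cxcl1 read 9.48 and 8.29 on the Myc-depleted arrays and 8.66 and 8.52 on the control arrays, so that Myc-depleted 1 was highest and Myc-depleted 2 lowest. Its 3 probe sets differed by 0.20 to 0.32, with unadjusted p of 0.516 to 0.533. Within the pairs each of them changed sign, as with 0.96 in the high and -0.37 in the low pair for the brightest. Cxcl5 read 9.25 and 9.20 on the Myc-depleted arrays and 9.90 and 8.83 on the control arrays, and thus both Myc-depleted values lay between the controls. Cxcl16, the ligand of Cxcr6, differed by 0.00. Of the 8 CXC genes tested, 4 were higher and 4 lower, with a median of 0.08. Cxcl12 alone had an unadjusted p under 0.05, a share near the 10.1% of all tested probe sets.

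**Figure D2:**
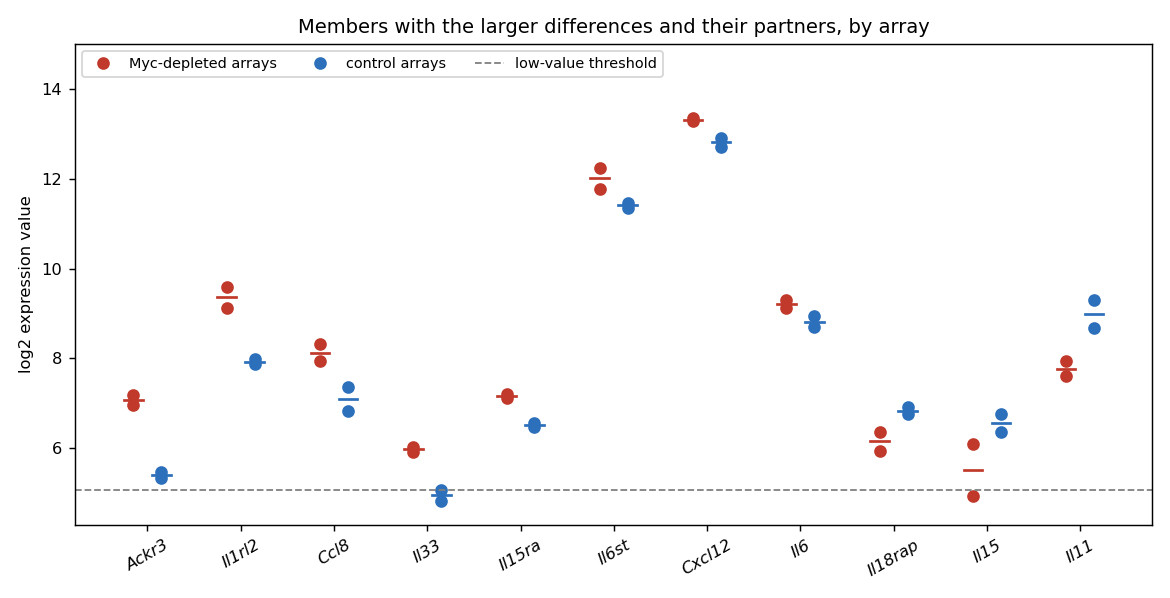
Log2 expression value (vertical axis) of 11 member genes on each Myc-depleted (red) and control (blue) array, with group means as bars and the low-value threshold of 5.08 as a dashed line, each gene by its brightest probe set. The genes are the 8 over 1.5-fold at an unadjusted p under 0.05 with Cxcl12, Il15 and Il6, chosen with their values known. Ackr3 lies at 7.19 and 6.96 on the Myc-depleted arrays against 5.47 and 5.34 on the control arrays.

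In the interleukin-1 family, the receptor chain Il1rl2 and the ligand Il33 had the largest positive differences and the receptor chain Il18rap a negative one, and 0 of them were called. Il1rl2, the receptor chain for the IL36 ligands, read 9.60 and 9.13 on the Myc-depleted arrays, against 7.98 and 7.87 on the control arrays. The groups were more than 1 log2 unit apart. The difference was 1.44 (SE 0.20), or 2.71-fold, with an unadjusted p of 0.00197 and an adjusted p of 0.292 in limma, and it was 1.15 within the low and 1.73 within the high spike-in pair. The second probe set of Il1rl2 differed by 0.35, with 5.02 and 6.09 in Myc-depleted and 5.55 and 4.87 in control cells, and its groups overlapped. The 250 bases before its start, chr1:40324339-40324588 on the plus strand (RefSeq, GRCm38.p6), are shown as those of the receptor with the second largest difference. The capitals mark the letters TATAAA on the opposite strand, at -166 to -161.
Il1rl2: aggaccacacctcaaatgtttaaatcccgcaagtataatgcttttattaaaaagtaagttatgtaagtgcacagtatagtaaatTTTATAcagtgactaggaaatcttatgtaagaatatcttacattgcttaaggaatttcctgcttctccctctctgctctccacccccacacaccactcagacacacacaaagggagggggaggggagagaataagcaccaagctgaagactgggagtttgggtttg
The IL36 ligands, which the platform names Il1f6, Il1f8 and Il1f9, and their antagonist Il1f5 gave low signal. Il1f6 lay under the threshold, and the other 3 differed by -0.09 to 0.19.

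Il33, an alarmin kept in the nucleus and released on cell damage, read 6.03 and 5.92 on the Myc-depleted arrays, against 5.08 and 4.84 on the control arrays. The control mean was under the threshold, so the difference of 1.02 (SE 0.14), or 2.03-fold, was measured against background. With values floored at the threshold it was 0.90. Its unadjusted p was 0.00196 and its adjusted p 0.292 in limma, and it was 0.85 and 1.19 within the low and the high pair. Il1r1, the signalling receptor for interleukin-1, read 12.01 and 11.20 on the Myc-depleted arrays and 10.83 and 11 on the control arrays. Its groups did not overlap, and its difference of 0.69 (SE 0.31) had an adjusted p of 0.568 in limma. It was 0.29 without Myc-depleted replicate 1 and 1.09 without Myc-depleted replicate 2. Il1rap, the accessory chain shared by the receptors for interleukin-1, Il33 and the IL36 ligands, differed by 0.35 (SE 0.12, adjusted p = 0.464 in limma) with its brightest probe set, and by -0.07 and 0.24 with the other 2 tested. The decoy receptor Il1r2 differed by 0.35, and its control mean lay under the threshold. Of the ligands of Il1r1, Il1b differed by 0.14 and its groups overlapped.

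The antagonist Il1rn was highest on Myc-depleted 2 with each of its 3 probe sets. These read 6.44, 6.13 and 5.84 on that array and 5.39, 5.40 and 5.20 on Myc-depleted 1, against 5.17 to 5.50 on the control arrays. The same array had the highest value of Lyz2, a gene of macrophages and alveolar cells, with 5.71 and 7.71 on Myc-depleted 1 and 2 and 5.27 and 5.88 on control 1 and 2. Over all 8 leukocyte markers the list mean on Myc-depleted 2 was 5.44. Cd14, Cd3e and Adgre1 also lay above the threshold with means of 6.81, 5.97 and 5.27, but were not highest on Myc-depleted 2. On Myc-depleted 1 and 2 Cd14 read 6.85 and 6.73, Cd3e 6.06 and 6.00, and Adgre1 5.54 and 5.18. Ptprc, Itgam, Cd68 and Itgax lay under the threshold and were not highest on that array either. The part of such cells in the Il1rn values was not tested.

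Il18rap, the accessory chain of the interleukin-18 receptor, was lower in Myc-depleted cells. It read 5.94 and 6.36 on the Myc-depleted arrays, against 6.92 and 6.75 on the control arrays. The groups did not overlap, and the difference of -0.68 (SE 0.19) had an unadjusted p of 0.0238 and an adjusted p of 0.427 in limma. A second probe set, just under the threshold, differed by -0.56, with 4.64 and 4.82 in Myc-depleted and 5.40 and 5.20 in control cells. The ligand Il18 read 7.74 and 7.70 on the Myc-depleted arrays and 7.30 and 7.63 on the control arrays, a difference of 0.25 (adjusted p = 0.681 in limma). The ligand-binding chain Il18r1 lay under the threshold. In the RefSeq order of the members on chromosome 1, Il1r2, Il1r1, Il1rl2, Il18r1 and Il18rap follow each other. Thus the members next to Il18r1 in that order, Il1rl2 and Il18rap, differed in opposite directions. Genes that are not members were not placed in this order and may lie between them.

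Of the interleukins that signal through gp130, Il11 had a difference of -1.22 and Il6 one of 0.40, of which the first had an unadjusted p under 0.05. Il11, a cytokine of fibroblasts and other stromal cells, read 7.60 and 7.94 on the Myc-depleted arrays, against 9.30 and 8.68 on the control arrays. Both Myc-depleted arrays lay below both control arrays. The difference was -1.22 (SE 0.27), which is 2.33-fold lower, with an unadjusted p of 0.0108 and an adjusted p of 0.382 in limma. It was -1.36 and -1.07 within the low and the high pair. In the ANOVA that the study's methods name, the unadjusted p for Il11 was 0.0746. RefSeq lists 2 starts for Il11, and the 250 bases before the one with a copy of the AP-1 letters TGACTCA are shown, since Il11 was the member with the largest negative difference. They are chr7:4778142-4778391 on the minus strand (GRCm38.p6), with the copy, read as TGAGTCA on this strand, in capitals at -98 to -92.
Il11: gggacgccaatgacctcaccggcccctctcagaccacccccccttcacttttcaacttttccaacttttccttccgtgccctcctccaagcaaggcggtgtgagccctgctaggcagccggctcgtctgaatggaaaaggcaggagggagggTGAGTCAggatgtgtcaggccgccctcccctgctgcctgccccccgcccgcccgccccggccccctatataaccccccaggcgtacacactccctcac
Il6, the founding cytokine of this family, read 9.31 and 9.13 on the Myc-depleted arrays, against 8.94 and 8.70 on the control arrays. The groups did not overlap, and the difference of 0.40 (SE 0.15) had an adjusted p of 0.515 in limma.

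Il6st, the gp130 chain itself, was read by 4 probe sets that split into 2 patterns. The brightest read 12.25 and 11.77 on the Myc-depleted arrays, against 11.34 and 11.47 on the control arrays, and the next 11.30 and 11.23 against 10.64 and 10.68. In both, the groups did not overlap, and the differences were 0.60 (SE 0.20, adjusted p = 0.476 in limma) and 0.61 (SE 0.11, unadjusted p = 0.00553, adjusted p = 0.346). The other 2 were high on the 2 arrays with low spike-in values. One read 5.64 and 8.50 on Myc-depleted 1 and 2 and 8.13 and 5.64 on control 1 and 2, and the other 8.06 and 10.02 on Myc-depleted and 9.57 and 8.29 on control arrays. The arrays of 1 group thus lay far apart, and the group differences were 0.19 (SE 1.34) and 0.11 (adjusted p = 0.982 in limma). The part of that property in the probe sets was not tested. Il6ra, the private chain of the interleukin-6 receptor, read 6.61 and 5.39 on the Myc-depleted arrays and 5.14 and 5.28 on the control arrays. Its difference of 0.79 (SE 0.45, adjusted p = 0.644 in limma) was 1.33 within the high and 0.25 within the low pair, and thus lay mostly on Myc-depleted 1.

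**Figure D3:**
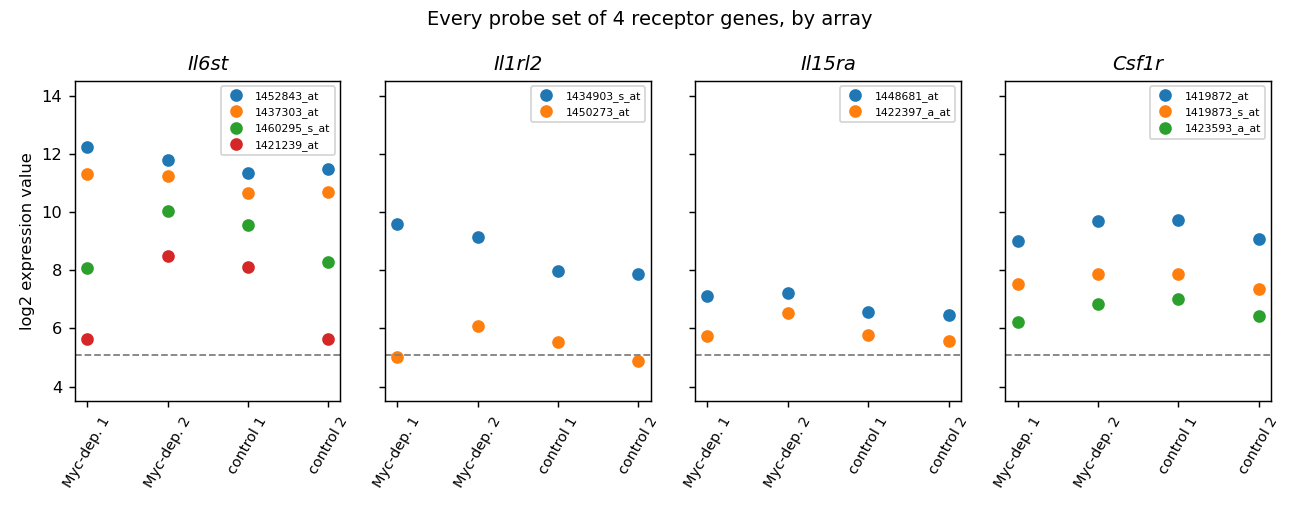
Log2 expression value (vertical axis) of every probe set of Il6st, Il1rl2, Il15ra and Csf1r on each of the 4 arrays (horizontal axis, Myc-depleted first), with the low-value threshold of 5.08 as a dashed line. The 2 dimmer Il6st probe sets are high on Myc-depleted 2 and control 1, up to 8.50 and 10.02, and low on the other arrays, whereas the 2 brighter ones are higher on both Myc-depleted arrays.

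Il15 and the chain that presents it, Il15ra, had differences of opposite sign, of which that of Il15 had an unadjusted p above 0.05. Il15, a growth factor of natural killer and memory T cells, read 4.95 and 6.11 on the Myc-depleted arrays, against 6.76 and 6.37 on the control arrays. The groups did not overlap, but Myc-depleted 1 lay under the threshold and Myc-depleted 2 close to control 2. The difference was -1.04 (SE 0.45), with an unadjusted p of 0.0795 and an adjusted p of 0.553 in limma. It was -0.46 without Myc-depleted replicate 1 and -1.62 without Myc-depleted replicate 2. Il15ra read 7.12 and 7.22 on the Myc-depleted arrays, against 6.56 and 6.47 on the control arrays. Its difference of 0.66 (SE 0.12), or 1.57-fold, was 0.66 within the low and 0.65 within the high pair, with an unadjusted p of 0.00500 and an adjusted p of 0.340 in limma. A second probe set differed by 0.47, and its groups overlapped. Il7, which supports lymphocytes, read 5.15 and 5.38 on the Myc-depleted arrays and 5.71 and 5.76 on the control arrays, a difference of -0.47 (SE 0.14, unadjusted p = 0.0263, adjusted p = 0.437 in limma).

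Among the other interleukin receptor chains, the genes with the highest signal did not pass the test. Il17ra, the common chain of the interleukin-17 receptors, read 10.57 and 9.35 on the Myc-depleted arrays and 9.01 and 9.61 on the control arrays with its brightest probe set, and its groups overlapped. Its difference was 0.65 (SE 0.49), and that of its second probe set 0.32 (SE 0.14, adjusted p = 0.552 in limma). Il4ra, the chain shared by the receptors for interleukin-4 and interleukin-13, differed by 0.12 to 0.40 over 3 probe sets, and Il13ra1, its partner, by -0.30 to 0.15 over 5. Il10rb, a chain of the receptors for interleukin-10 and related cytokines, differed by 0.11. Of the 17 interleukin receptor genes tested 14 were higher and 3 lower, with a median of 0.35, beside 0.02 over all genes tested. An unadjusted p under 0.05 was reached by 5 of them. Over all tested probe sets, rather than genes, 10.1% reached it and 49.5% had a positive difference. Of the 20 interleukin genes 13 were higher and 7 lower, with a median of 0.10, and 3 had an unadjusted p under 0.05 (Il33, Il11 and Il7). Since a receptor that was dim in control cells could pass the filter through Myc-depleted cells, these counts are descriptions.

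Csf1, the growth factor of macrophages, and its receptor Csf1r both gave signal in cells sorted as CD45-negative. The brightest probe set of Csf1 read 12.51 and 12.41 on the Myc-depleted arrays and 12.40 and 12.39 on the control arrays, a difference of 0.06 (SE 0.11, adjusted p = 0.922 in limma). Its other 3 probe sets differed by -0.14 to 0.04 and were higher on Myc-depleted 2 and control 1 than on the other arrays. The brightest of Csf1r read 9.0 and 9.70 on the Myc-depleted arrays and 9.72 and 9.09 on the control arrays, and its 3 probe sets shared that order of arrays with differences of -0.21 to 0.10. Csf2ra, a chain of the receptor for granulocyte-macrophage colony-stimulating factor, read 6.24 and 5.75 on the Myc-depleted arrays and 5.44 and 5.68 on the control arrays, a difference of 0.44 (adjusted p = 0.606 in limma). Csf3r differed by -0.02, and Csf2 and Csf3 lay under the threshold.

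Within the 2 pairs of arrays, 69 of 104 tested member probe sets, or 66.3%, had the same sign, beside 66.7% of all probe sets tested. Of the 69, 45 had a positive and 24 a negative difference. With the spike-in value as a covariate, limma called 16 of 104 member probe sets (15.4%), against a background of 11.9%. These named Ackr3, Il1rl2 (both probe sets), Il33, Ccl8, Cxcl12, Il6st (the 2 brighter), Il15ra (both), Il1r1 and Il17ra, higher, and Il11, Il15, Il18rap and Il7, lower. That fit leaves 1 residual degree of freedom and 2 arrays at each end of the covariate.

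**Figure D4:**
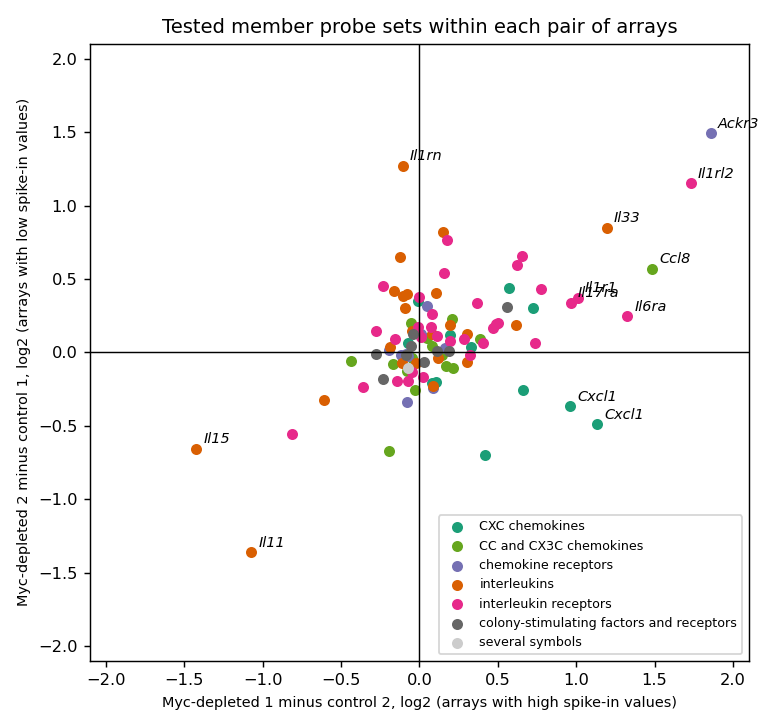
Log2 difference of the 104 tested member probe sets within the pair of arrays with high spike-in values (Myc-depleted 1 minus control 2, horizontal axis) and within the pair with low values (Myc-depleted 2 minus control 1, vertical axis), coloured by role. Ackr3 at 1.86 and 1.49 and Il1rl2 at 1.73 and 1.15 lie far from 0 on both axes, Il11 at -1.07 and -1.36 on the negative side, whereas Cxcl1 and Il1rn lie near or across an axis.

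Among genes outside the families that carry the signals of these receptors or act beside them, 0 were called in limma. The counts that follow stand beside 10.1% of all tested probe sets with an unadjusted p under 0.05 and 49.5% with a positive difference. Of 13 tested adaptors of the interleukin-1 receptor family 9 were higher and 4 lower (median 0.08), and 1 had an unadjusted p under 0.05. This was Irak3, a kinase-like inhibitor of that pathway. Irak3 read 7.57 and 6.94 on the Myc-depleted arrays, against 5.21 and 5.92 on the control arrays, a difference of 1.69 with an unadjusted p of 0.00856 and an adjusted p of 0.373 in limma. The adaptor Myd88 differed by 0.45, the kinase Map3k7 by -0.35 and Tab2 by 0.29. Of 20 genes of the Jak, Stat and Socs families 15 were higher and 5 lower (median 0.19), and 5 had an unadjusted p under 0.05. Stat6, the factor downstream of Il4ra, differed by 0.62, Stat5b by 0.36, Stat2 by 0.46 and the inhibitor Socs6 by -0.67. Of 14 genes of the NF-kB pathway 9 were higher and 5 lower (median 0.10), and 1 had an unadjusted p under 0.05, a share near that background, with Rel at -0.32 (unadjusted p = 0.0453), Ikbkg at 0.54, Tnip1 at 0.38 and Ikbke at 0.45. Of 12 other cytokine and receptor genes 7 were higher and 5 lower (median 0.06), and 2 had an unadjusted p under 0.05. Crlf2, a chain of the receptor for thymic stromal lymphopoietin, read 9.61 and 9.38 on the Myc-depleted arrays and 8.59 and 8.66 on the control arrays, a difference of 0.87 (unadjusted p = 0.00330, adjusted p = 0.324 in limma). Epor differed by 0.47, Kitl by -0.25 and Osmr, the oncostatin M receptor, by 0.34. Of 5 other chemokine system genes 2 had an unadjusted p under 0.05. The chemoattractant Rarres2 differed by -0.77 (unadjusted p = 0.00756), Cx3cr1 by 0.36, Mif by -0.10 and Ccrl2 by 0.05.

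The promoter table held 117 windows of 250 bases for 100 of the 132 member genes, each ending at an annotated start. The letters CACGTG, the canonical E-box bound by Myc and Max, stood in 3 of them (2.56%), those of Cxcl3, Il1r2 and Il6ra, against 6.02% of all 32851 windows. They were not in the windows of Ackr3, Il1rl2, Ccl8 or Il11 shown here. The AP-1 letters TGACTCA, on either strand, stood in 16 (13.7%), against 4.46% of all windows, with Il11, Il6, Il15ra and Il1rn among the tested genes that have a copy. TATAAA, on either strand, stood in 23 (19.7%), against 12.4%. CACGTG reads the same on both strands, and no copy of these 3 motifs overlapped another in the windows shown. A match is a description of the letters and says nothing of binding.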

How the data were processed

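Total RNA was read on Affymetrix mouse GeneChip arrays, 2 of Myc-depleted and 2 of control BASCs. Values were deposited as log2 signals. The authors' methods name Robust Multichip Average normalization in Partek Genomics Suite, and the submitters' processing notes name Partek 6.4 and GCRMA. Which of these methods was used is unknown here, and low signals depend on it most. Signals ran from 2.89 to 14.6, and differences between dim signals may be compressed by background, to a degree not known here. Of 45101 rows, 64 control probe sets were left out. Names came from the supplied platform annotation.

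Probe sets with a mean over 4 arrays under the 40th percentile (log2 5.08) were not tested, which left 27022. Myc-depleted and control arrays were compared with limma 3.58.1 in R 4.3.3 (lmFit, eBayes, with 2 residual and 2.02 prior degrees of freedom). Benjamini-Hochberg adjustment was over all tested probe sets. After the fit to the arrays, the same fit was run on data simulated with their means and spreads. The number of arrays limits the precision. A gene with several probe sets is represented in counts by its brightest tested one.

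Named are Myc, members over 1.5-fold different at an unadjusted p under 0.05, and the 4 genes with the highest mean in each role. Some binding partners of these genes, chosen by hand, are named too, but others such as Cxcr2, Ccr1 and Cxcr6 are given without values. From each list of other genes the 4 with the smallest p are named. Some other members, such as Il7, Il1r2, Il4ra and Il13ra1, are described outside this rule. Members and lists were chosen with earlier results of these data known. Promoter windows and gene order came from RefSeq tables (GRCm38.p6). Alternatives covered the filter, scaling, a floor, the variance model, the methods' ANOVA, the replicate number as a block, a spike-in covariate, gene means, the fold threshold and each array left out.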

Additional observations from a re-analysis of the deposited data

How the results depend on the processing

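Calls of members depended on the model more than on the scaling. Of 104 tested member probe sets 0 were called with limma and with no filter, the stricter filter, either scaling, the floor, the trended variance, the methods' ANOVA, the replicate block or any array left out, whereas 16 were called with the spike-in covariate and 1 gene with gene means. At an unadjusted p under 0.05 the count was 13 in limma and 9 with the methods' ANOVA, 7 with the replicate number as a block, 30 with the spike-in covariate, and 6 to 21 with an array left out. Same-numbered arrays deviated in opposite directions (r = -0.77 across probe sets). Crossing the numbers, which was chosen after seeing the data, gave 23 at an unadjusted p under 0.05 and 0 called. Members over 2-fold at an unadjusted p under 0.05 numbered 5, but 4 with the floor, which took Il33 to 0.90, 3 with the methods' ANOVA, 9 at a fold threshold of 1.5 and 3 to 9 with an array left out. Groups did not overlap for 41 probe sets, for 78 of 215 with no filter, for 20 of 48 with the stricter filter, and for 63 to 80 with an array left out, where fewer arrays make overlap rarer. The median difference was 0.10, 0.0595 with no filter and 0.0308 to 0.13 with an array left out. The causes of these shifts were not tested.

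Of 37 named genes with a tested probe set, 22 kept their sign under every alternative in which they were tested, among them Ackr3, Il1rl2, Il33, Ccl8, Cxcl12, Il15ra, Il6st, Il11, Il15 and Il18rap. The other 15 changed sign under at least 1, and Il1rn, at 0.58, had the largest difference among them. The filters, the trended variance, the methods' ANOVA and the replicate block leave a difference as it is. Groups that do not overlap also keep their sign with an array left out or within a pair. This held for the genes listed from Ackr3 to Il18rap, so under these alternatives their kept sign was fixed in advance. Within the low spike-in pair, chosen after seeing the data, Ccl7 differed by -0.0931, Cxcl1 by -0.37 and Cxcl16 by 0.0662. Within the high pair Cxcl5 differed by 0.42, Csf3r by 0.0295, Il1f8 by -0.0449, Il1b by -0.11, Il1rn by -0.11 and Il17a by 0.0896. Cxcl16 differed by 0.0076 after quantile normalization and by 0.0030 after median centring, Csf1 by -0.0110 with gene means and Csf1r by 0.0379 with the spike-in covariate. With an array left out, the difference ran from -0.54 to 0.12 for Ackr4, -0.18 to 0.26 for Ccl7, -0.15 to 0.0672 for Ccl9, -0.16 to 0.0193 for Ccr9, -0.40 to 0.30 for Csf1r, -0.0848 to 0.0510 for Csf3r, -0.30 to 0.89 for Cxcl1, -0.0525 to 0.0462 for Cxcl16, -0.67 to 0.39 for Cxcl5, -0.0075 to 0.23 for Il10rb, -0.16 to 0.0231 for Il17a, -0.0229 to 0.30 for Il1b and -0.0322 to 0.13 for Il1f8. Where an array is left out, the lone array of its group is assumed to vary like the other group.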
